A study of Mus musculus with 12 samples.

Results

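Superoxide and peroxide scavenging enzymes were described in ventricular wall RNA from mice with and without Sdhaf4, a mitochondrial protein that helps assemble succinate dehydrogenase (respiratory complex II). The set holds 10 genes chosen by name: the superoxide dismutases Sod1, Sod2 and Sod3, catalase (Cat), the peroxiredoxins Prdx3 and Prdx5, mitochondrial thioredoxin (Txn2) and the glutathione peroxidases Gpx1, Gpx3 and Gpx4. Of the 10, 9 had a row of that name among the 43686 rows of the table, each with 647 to 16083 counts in every library, and all 9 passed the filter on low counts. Sod2 had no row of that name. The WT group was 6 samples from Sdhaf4fl/fl mice without Cre. The KO group was 6 samples from Sdhaf4fl/fl mice that carried Ckmm-Cre. This Cre is driven by the muscle creatine kinase promoter and acts in heart muscle and skeletal muscle. Other cells of the ventricle should thus keep the gene. Both groups therefore carried floxed Sdhaf4, of which Cre removes the first exons. The strain is C57BL/6 in the sample labels and C57BL/6J in the methods. By the labels the mice were 2 months old; the text of the paper gives a younger age, and its reporting summary names a pair of ages for omics work, the older of which matches the labels. The labels number the samples within each group and do not state that each was a separate animal, so the p-values measure the spread between these samples.

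Superoxide forms when electrons leak from the respiratory chain and from oxidases. Superoxide dismutases turn it into hydrogen peroxide, Sod1 mainly in the cytosol, Sod2 in the mitochondrial matrix and Sod3 outside the cell. Hydrogen peroxide is then removed by catalase in peroxisomes, by peroxiredoxins that are recharged by thioredoxin, and by glutathione peroxidases that draw on glutathione. Heart muscle is rich in mitochondria, where Prdx3, Prdx5 and Txn2 act.

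Sdhaf4 itself was at 25.2 ± 5.80 CPM (counts scaled to library size with TMM factors; mean ± SD, n = 6) in WT and 2.40 ± 0.17 in KO, a log2 fold change of -3.39 (adjusted p = 1.95e-10 by edgeR's quasi-likelihood test, as for every adjusted p given here), and the groups did not overlap. WT replicate 6 had the lowest Sdhaf4 of the WT group, 14.3 CPM, and the highest Nnt. The libraries held 23747014 to 27159228 counts in WT and 26542930 to 31393393 in KO. Of 10 cardiomyocyte markers, all were detected, 5 were lower and 1 higher in KO, and their summed level was 55532 to 60742 CPM in WT and 47653 to 61775 in KO, the highest being KO replicate 3. Of 10 fibroblast markers, 9 were higher in KO, and their sum was 1500 to 1844 CPM in WT and 2718 to 5297 in KO. By comparison, 25.6% of all rows tested were higher and 25.5% lower. In bulk tissue, fewer cells of a type and less RNA per cell cannot be told apart.

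Of the 9 enzymes measured, 5 were lower in KO hearts (Sod1, Cat, Prdx3, Prdx5 and Txn2), 3 were higher (Sod3, Gpx1 and Gpx4), and Gpx3 did not pass the adjusted p of 0.05. Across all 17155 rows tested, 51.1% were called, 25.6% higher and 25.5% lower. The median log2 fold change of the 9 was -0.29, against 0.00 over all rows tested. In 7 of the 9 the 6 KO libraries lay entirely outside the range of the 6 WT libraries, 5 of them below and 2 above, where 30.1% of all rows did so in either direction, 15.2% below and 14.9% above. The changes were modest. At the stricter threshold of an adjusted p of 0.005 with an absolute log2 fold change over 1, which 10.2% of all rows passed, 0 of the 9 were called by edgeR, DESeq2 or limma-voom, and 0 had an absolute log2 fold change over 1 at any p under 0.05. The calls of the 8 held in all 12 fits that left out a library. Beside the 5 falls, the ratio of the summed cardiomyocyte markers, KO over WT, was 0.90 with overlapping groups; its part in these results was not tested.

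**Figure D1:**
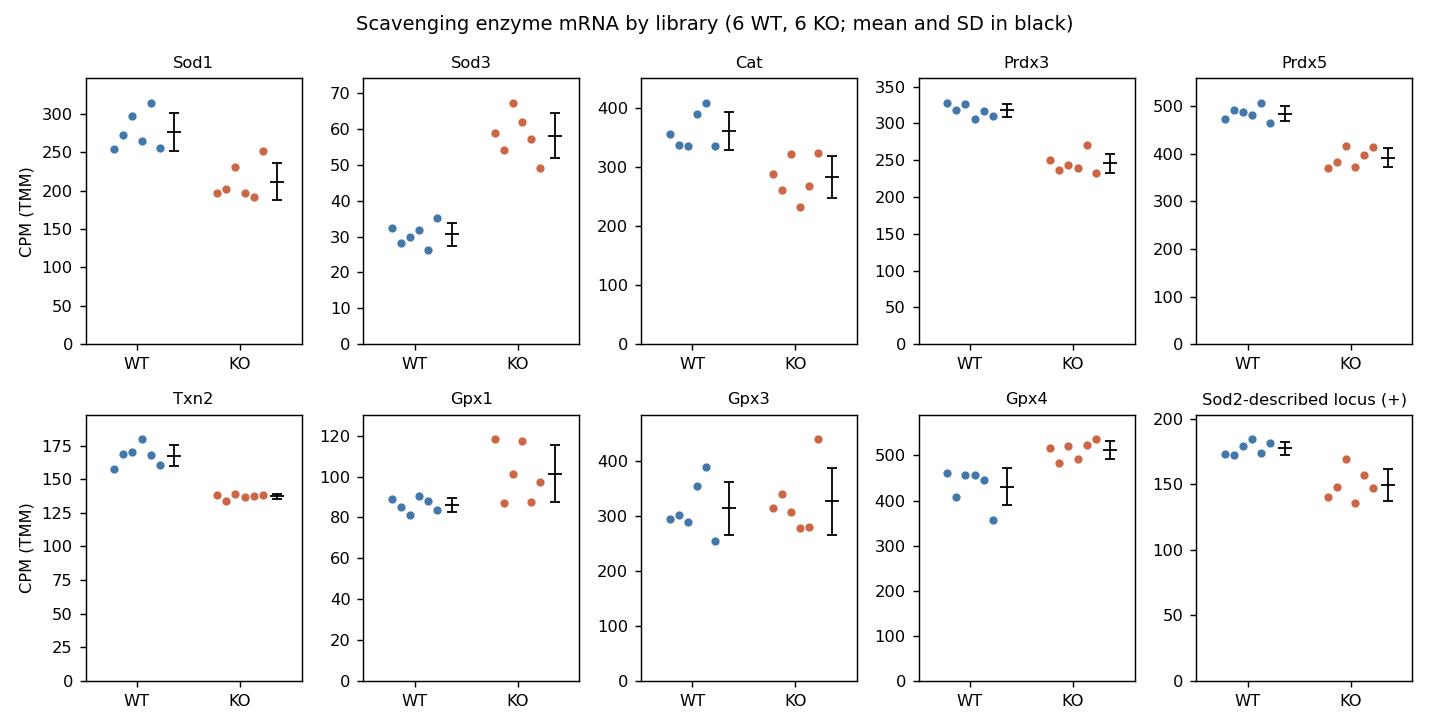
TMM-scaled CPM of the 9 measured enzymes and of the plus-strand chromosome 17 locus described as Sod2, one panel each with an axis from 0; every point is a library of the WT or KO group, in order of replicate, and the black marks give mean and SD (n = 6). In Sod1, Cat, Prdx3, Prdx5 and Txn2 all KO points lie below all WT points, in Sod3 and Gpx4 all lie above, and in Gpx1 and Gpx3 the groups overlap.

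Prdx5 was lower in KO, but annotated exons cover all 250 bases upstream of it, so its sequence is not printed. The upstream sequences of the other 4 enzymes that were lower in KO are shown because these genes moved the same way. They are RefSeq sequences of build GRCm38.p6, printed 5′ to 3′ on the strand of the gene and cut to 150 bases outside every annotated exon, with GC boxes (GGGCGG or its reverse complement CCGCCC) in capitals. Prdx3 is at chr19:60874557-60874706 on the minus strand, Txn2 at chr15:77929007-77929156 on the minus strand, Sod1 at chr16:90220604-90220753 on the plus strand, and Cat at chr2:103485161-103485310 on the minus strand.
Prdx3: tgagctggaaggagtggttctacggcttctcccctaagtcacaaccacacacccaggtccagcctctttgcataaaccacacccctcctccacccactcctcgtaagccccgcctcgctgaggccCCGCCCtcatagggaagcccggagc
Txn2: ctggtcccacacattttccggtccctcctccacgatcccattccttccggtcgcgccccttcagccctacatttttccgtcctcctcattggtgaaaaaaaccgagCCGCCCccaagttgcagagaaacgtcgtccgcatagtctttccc
Sod1: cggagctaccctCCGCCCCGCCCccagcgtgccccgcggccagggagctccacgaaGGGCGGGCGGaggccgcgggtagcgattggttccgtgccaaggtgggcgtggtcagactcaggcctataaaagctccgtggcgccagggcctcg
Cat: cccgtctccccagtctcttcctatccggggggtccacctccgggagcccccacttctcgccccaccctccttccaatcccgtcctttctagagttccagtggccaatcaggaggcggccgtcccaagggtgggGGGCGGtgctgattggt
The stretch holds 4 GC boxes in Sod1, which overlap each other in pairs, and 1 each in Prdx3, Txn2 and Cat. Over the full 250 bases upstream, 8 of the enzymes had 11 annotated windows, and 9 of the 11 windows, belonging to Cat, Gpx3, Gpx4, Prdx3, Prdx5, Sod1 and Txn2, held GGGCGG on either strand, against 32.7% of 32851 windows of all genes. The windows are not independent: Gpx4 had several, and those that start at 80053315 and 80053409 overlap and hold the same boxes. The box was thus present upstream of enzymes that fell, of Gpx4, which rose, and of Gpx3. In the Prdx5 window it lies within an annotated exon. The antioxidant response element core TGACNNNGC was found upstream of Sod1 alone, 56 to 48 bases before the start site and on the other strand, where the gene's strand reads GCGTGGTCA; 10.2% of all windows held it. The variant TGAGNNNGC was found upstream of Txn2 alone, against 14.4% of all. The hypoxia response core ACGTG was found upstream of Gpx1 alone, against 16.6%. TATAAA was found in Sod1 and Prdx3, against 12.4%. Neither the estrogen-related receptor motif TCAAGGTCA (0.387% of all windows) nor the forkhead motif GTAAACA (3.17%) was found in the 11 windows. All motifs were searched on both strands, and a match is a description of the letters only.

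Among the superoxide dismutases, the cytosolic and the extracellular enzyme moved in opposite directions. Sod1, the copper and zinc enzyme of the cytosol (MGP_C57BL6NJ_G0023441, chromosome 16, 94102668 to 94108248, plus strand, on the strain assembly of the table), was at 255 CPM in the lowest, 269 in the median and 315 in the highest WT library, and at 192, 199.7 and 252 in KO. All KO libraries lay below all WT libraries, with KO replicate 6 within 3 CPM of the lowest WT. The mean was 277 ± 24.4 in WT and 212 ± 24.4 in KO, and Sod1 fell by 23.4% (log2 fold change -0.38, SE 0.0748, 95% interval -0.54 to -0.23, adjusted p = 0.000372). Sod1 had the shortest row of the 9, 646 bases, and when trends of the fold change with gene length and GC content were removed its log2 fold change was -0.15, no longer past the threshold (adjusted p = 0.0860). Ccs, the chaperone that loads copper into Sod1, was at 24.4 ± 2.26 CPM in WT and 19.5 ± 0.98 in KO (log2 fold change -0.33, SE 0.0682, adjusted p = 0.000673), with no overlap between the groups.

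Sod3, the secreted enzyme (MGP_C57BL6NJ_G0029975, chromosome 5, 53472655 to 53480341, plus strand), changed most of the 9. It was at 26.2 CPM in the lowest, 30.8 in the median and 35.0 in the highest WT library, and at 49.1, 58.0 and 67.3 in KO. Every KO library was above every WT library. The fold was 1.90 (95% interval 1.69 to 2.13, log2 fold change 0.92, SE 0.0797, adjusted p = 6.45e-08). The fibroblast markers rose in the same libraries, with a ratio of summed means of 2.45. Within KO the order differed in part: replicate 3 had the highest Sod3 (67.3 CPM) with the second lowest fibroblast sum (3032 CPM), and replicate 6 had the lowest of both (49.1 and 2718 CPM). The part of the fibroblast markers in the Sod3 result was not tested.

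**Figure D2:**
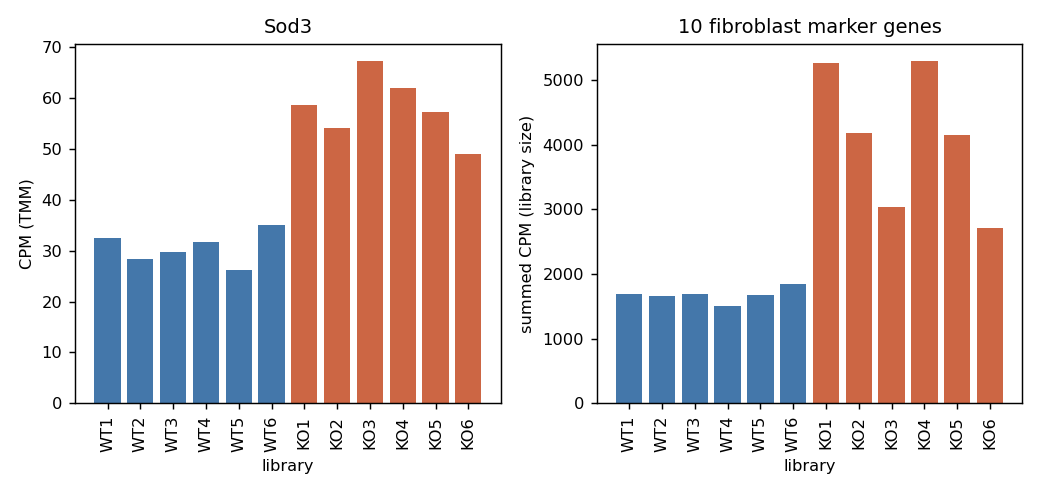
Left, Sod3 in TMM-scaled CPM; right, the summed CPM (scaled to library size) of 10 fibroblast marker genes; one bar per library, WT in blue and KO in orange, both axes from 0. Sod3 is 26.2 to 35.0 CPM in WT and 49.1 to 67.3 in KO, and the fibroblast sum is 1500 to 1844 in WT and 2718 to 5297 in KO.

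Per gene length, the level of Sod3 stayed far below that of Sod1. In FPKM (fragments scaled to gene length and library size), Sod1 was at 427 ± 32.5 in WT and 327 ± 30.1 in KO, and Sod3 at 8.18 ± 0.95 and 15.5 ± 1.69. The share of Sod3 in the sum of both was 1.90% ± 0.33 in WT and 4.57% ± 0.69 in KO. The sum itself was 401 to 483 FPKM in WT and 316 to 393 in KO.

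For Sod2, the manganese enzyme of the mitochondrial matrix, 4 unannotated loci carried a description as that enzyme; they were chosen after the table was read. On chromosome 17 a plus-strand locus (11079688 to 11105684) was at 172 to 184 CPM in WT and 136 to 169 in KO, without overlap, a log2 fold change of -0.25 (SE 0.0528, adjusted p = 0.000887). A minus-strand locus that overlaps it over 25535 bases was at 15.0 to 19.6 CPM in WT and 10.1 to 21.4 in KO and did not pass the threshold (-0.24, adjusted p = 0.242; without KO replicate 6 it was -0.37, adjusted p = 0.0410). On an unplaced scaffold, a minus-strand locus was at 304 ± 15.9 CPM in WT and 246 ± 20.6 in KO (-0.30, adjusted p = 0.000326), and its plus-strand partner was at 37.8 ± 3.33 CPM in WT and had a log2 fold change of -0.25 (adjusted p = 0.115; without KO replicate 3, -0.37, adjusted p = 0.00535). Summed, the 4 loci were at 537 ± 21.6 CPM in WT and 443 ± 40.8 in KO (-0.28, SE 0.0600, 95% interval -0.40 to -0.15, adjusted p = 0.000920), and KO replicate 3, at 519 CPM, overlapped the lowest WT library by less than 1 CPM. Whether these loci are transcripts of Sod2 rests on the description in the table.

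Catalase, the peroxisomal enzyme that splits hydrogen peroxide (MGP_C57BL6NJ_G0026625, chromosome 2, 108976734 to 109007829, minus strand), was lower in KO. It was at 335 CPM in the lowest, 347 in the median and 409 in the highest WT library, and at 233, 279 and 323 in KO. KO replicates 3 and 6 came closest to the WT range, at 322.9 and 323.3 CPM. Cat fell by 21.5% (log2 fold change -0.35, SE 0.0803, 95% interval -0.52 to -0.18, adjusted p = 0.00152).

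Of 20 genes of the peroxisome, the organelle that holds catalase, 12 were lower, 1 was higher and 7 were not called, beside 25.5% lower and 25.6% higher over all rows tested, with a median log2 fold change of -0.26. The falls included Pxmp2, a membrane channel protein (75.9 ± 6.89 CPM in WT and 32.7 ± 7.87 in KO, log2 fold change -1.21, adjusted p = 4.49e-06), and Pxmp4 (51.7 ± 4.12 and 26.1 ± 3.57, -0.99). The only rise was Pex3, a membrane biogenesis factor (0.22, adjusted p = 0.0359), whose span overlaps that of Adat2; its call was lost without WT replicate 2, 4, 5 or 6 or KO replicate 2, 4, 5 or 6, at 0.18 to 0.22.

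The mitochondrial enzymes Prdx3, Prdx5 and Txn2 all fell, with narrow spreads. Prdx3, the peroxiredoxin of the mitochondrial matrix (MGP_C57BL6NJ_G0025712, chromosome 19, 62930765 to 62941195, minus strand), was at 307 CPM in the lowest, 318 in the median and 328 in the highest WT library, and at 233, 242 and 270.2 in KO. The highest KO library, replicate 5, was below the lowest WT. Prdx3 fell by 22.7% (log2 fold change -0.37, SE 0.0466, 95% interval -0.47 to -0.27, adjusted p = 4.61e-06), and its log2 fold change was -0.23 with length and GC trends removed (adjusted p = 0.000707).

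Prdx5, which is sent to mitochondria, peroxisomes and the cytosol (MGP_C57BL6NJ_G0025180, chromosome 19, 4083504 to 4086913, minus strand), was at 464, 485 and 507 CPM in the lowest, median and highest WT library, and at 369, 391 and 417 in KO. Again no KO library reached the WT range. Prdx5 fell by 19.1% (log2 fold change -0.31, SE 0.0483, adjusted p = 5.27e-05). Its span overlaps Trmt112 on the other strand by 409 bases, and that row held 5540 counts in all against 142782 for Prdx5. Whether the counting used strand is not given in the sources used here.

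Txn2, the thioredoxin that recharges Prdx3 and Prdx5 in mitochondria (MGP_C57BL6NJ_G0022442, chromosome 15, 81126101 to 81140083, minus strand), had the tightest KO values of the set. It was at 157, 169 and 179.7 CPM in the lowest, median and highest WT library and at 134, 138 and 139 in KO. Txn2 fell by 18.1% (log2 fold change -0.29, SE 0.0424, adjusted p = 2.57e-05).

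The reductive power of this branch comes as NADPH, part of which is made in mitochondria by Nnt. Nnt was at 1024 to 1090.3 CPM in 5 WT libraries and at 1483 in WT replicate 6, and at 335 to 761 in KO. The groups did not overlap (log2 fold change -1.22, SE 0.18, adjusted p = 7.86e-05; -1.39 to -1.13 over the 12 fits without a library). The C57BL/6J substrain, the background given in the methods, is known for a deletion within Nnt, and which allele each mouse carried was not analysed here. Idh2, a mitochondrial NADPH source named after its values were seen, was at 2062 ± 87.3 CPM in WT and 1161 ± 281 in KO (-0.83, adjusted p = 9.16e-05).

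**Figure D3:**
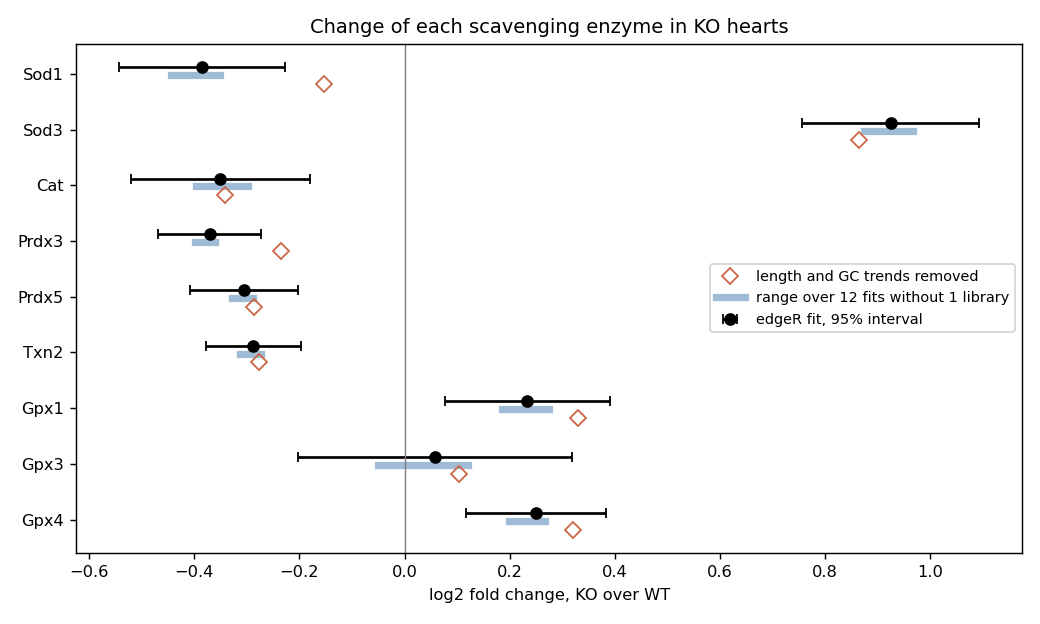
Log2 fold change of KO over WT for the 9 enzymes: black circles and bars give the edgeR estimate and its 95% interval, blue bands the range over 12 fits that each left out a library, and open diamonds the estimate with length and GC trends removed. The Sod1 diamond, at -0.15, lies nearer to 0 than the circle at -0.38, and the interval of Gpx3 spans 0.

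The glutathione peroxidases of the set did not follow the falls of Prdx3 and Prdx5. Gpx4, the enzyme that reduces lipid peroxides in membranes (MGP_C57BL6NJ_G0017874, chromosome 10, 83405561 to 83417218, plus strand), was higher in KO. It was at 356, 452 and 461 CPM in the lowest, median and highest WT library and at 484, 519 and 536 in KO. WT replicate 6 was the lowest, and no WT library reached the KO range. Gpx4 was 1.19-fold higher (95% interval of the log2 fold change 0.12 to 0.38, SE 0.0632, adjusted p = 0.00315), and without WT replicate 6 the log2 fold change was 0.20 rather than 0.25. A short unannotated locus described as part of the same enzyme held 553 counts in all, and adding it left the log2 fold change at 0.25. The mouse genome carries an annotated pseudogene, Gpx4-ps2, on chromosome 10, and how reads that match both were assigned is not given in the sources used here.

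Gpx1, which reduces hydrogen peroxide in the cytosol and mitochondria (MGP_C57BL6NJ_G0035786, chromosome 9, 113285315 to 113286755, plus strand), was also higher, with a wider spread in KO. It was at 81.5, 86.6 and 90.6 CPM in the lowest, median and highest WT library and at 86.9, 99.3 and 118 in KO. KO replicates 1 and 4 were highest, replicates 2 and 5 lay within the WT range, and 4 of the 6 KO libraries were above every WT library. The log2 fold change was 0.23 (SE 0.0741, 95% interval 0.08 to 0.39, adjusted p = 0.0143), and 0.19 without KO replicate 1. KO replicates 1 and 4 also had the highest fibroblast sums (5262 and 5297 CPM). Among the other KO libraries the order differed. Replicates 2 and 5 had the lowest Gpx1 of the group (86.9 and 87.5 CPM), with fibroblast sums of 4180 and 4146 CPM. Replicates 3 and 6 had higher Gpx1 (101 and 97.4 CPM) with lower sums (3032 and 2718 CPM). The part of the fibroblast markers in the Gpx1 result was not tested. Red blood cells hold much Gpx1, Prdx2 and Cat, and the summed red blood cell markers were at 289.7 to 991 CPM in WT and 592 to 1265 in KO, with 0 of 3 tested called by edgeR, DESeq2 or limma-voom and 0 at an unadjusted p of 0.05.

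Gpx3, the secreted glutathione peroxidase (MGP_C57BL6NJ_G0018713, chromosome 11, 56056015 to 56063939, plus strand), did not pass the test. It was at 255, 298 and 388 CPM in the lowest, median and highest WT library and at 277, 311 and 439 in KO, so the ranges overlapped widely. The log2 fold change was 0.06 with a 95% interval of -0.20 to 0.32 (adjusted p = 0.720). The highest library was KO replicate 6, without which the log2 fold change was -0.05.

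The order of the levels per gene length was the same in both groups except for Prdx3 and Cat, whose libraries overlapped in both. In WT, Gpx4 was highest at 634 ± 51.7 FPKM, followed by Prdx5 (445 ± 11.1), Sod1 (427 ± 32.5), Gpx3 (301 ± 42.4), Prdx3 (215 ± 6.24), Cat (212 ± 15.9), Txn2 (177 ± 7.53), Gpx1 (101 ± 3.78) and Sod3 (8.18 ± 0.95). The WT libraries of neighbours overlapped for Prdx5 and Sod1 and for Prdx3 and Cat. In KO, Gpx4 was at 755 ± 24.5 FPKM and Prdx5 at 361 ± 11.1, and the libraries overlapped between Prdx5 and Sod1, Sod1 and Gpx3, Cat and Prdx3, and Txn2 and Gpx1. The share of Gpx4 in the summed FPKM of the 9 was 25.1% ± 1.54 in WT and 31.9% ± 1.11 in KO, while the sum was 2339 to 2669 FPKM in WT and 2292 to 2541 in KO and overlapped.

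**Figure D4:**
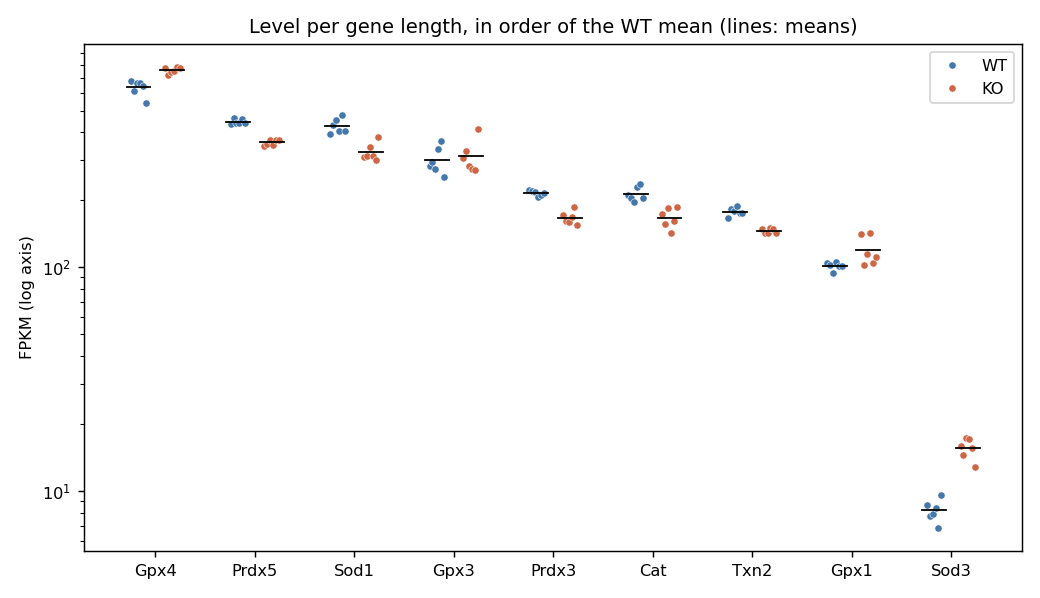
FPKM of the 9 enzymes on a log axis, ordered by the WT mean; points are libraries of WT (blue) and KO (orange), and black lines are group means. Gpx4 leads in both groups, at 634 FPKM in WT and 755 in KO, and Sod3 is lowest, at 8.18 and 15.5.

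Of 7 tested genes of the same enzyme families outside the set, 2 were lower, 0 were higher by edgeR and 5 were not called. At an unadjusted p of 0.05 by edgeR, 1 was higher, and DESeq2 and limma-voom gave the same counts. Over all rows tested, 25.6% were higher and 25.5% lower. The median log2 fold change of the 7 was -0.08. Prdx2, an abundant cytosolic peroxiredoxin, was at 309 to 348 CPM in WT and 250.1 to 289 in KO, without overlap (-0.32, SE 0.0491, adjusted p = 3.31e-05); its span overlaps that of Rnaseh2a, which held 5.03% as many counts. Gpx7, an enzyme of the endoplasmic reticulum, was lower at low levels (10.2 ± 1.20 and 7.98 ± 1.57 CPM, -0.35, adjusted p = 0.0307), a call lost without WT replicate 5 or 6 or KO replicate 3 (-0.33 to -0.31) and with length and GC trends removed (-0.27, adjusted p = 0.0876). Prdx1, cytosolic, had a log2 fold change of -0.08 (adjusted p = 0.306), Prdx4, of the endoplasmic reticulum, 0.04 (adjusted p = 0.707; 0.22 and adjusted p = 0.0168 with length and GC trends removed), and Txn1, the cytosolic thioredoxin, -0.06 (adjusted p = 0.312). Prdx6 was at -0.11 (adjusted p = 0.168; -0.16 and adjusted p = 0.0248 without KO replicate 6). Gpx8 was at 0.20 (adjusted p = 0.0580), and passed without KO replicate 4 or 5 (0.23 and 0.24) and with length and GC trends removed (0.39). Summed over all 6 peroxiredoxins, the level was 1270 to 1343 FPKM in WT and 1097 to 1125 in KO and did not overlap, whereas the 5 glutathione peroxidases summed to 927 to 1147 in WT and 1174 to 1324 in KO, also without overlap. These sums are descriptions without a test.

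**Figure D5:**
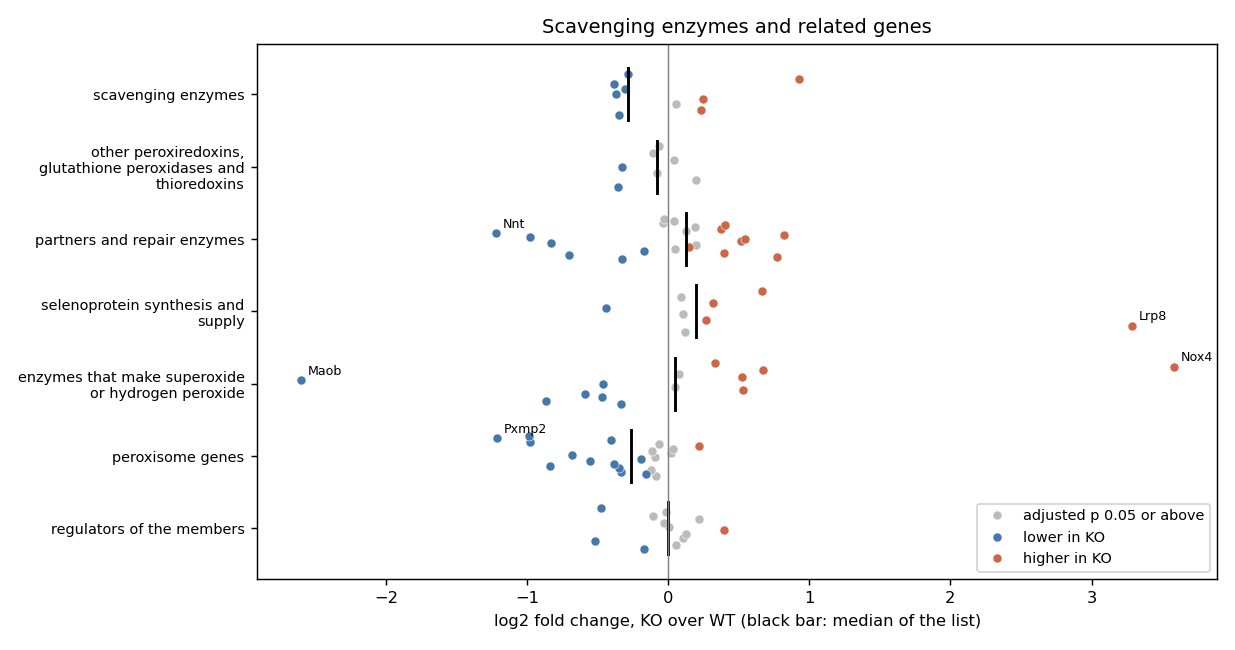
Log2 fold change of KO over WT for the 9 enzymes and for the tested genes of 6 lists of related genes; each point is a gene, colored by its call at an adjusted p of 0.05, and black bars are list medians. Nox4 and Lrp8 lie farthest to the right, at 3.58 and 3.28, and Maob farthest to the left, at -2.60.

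Of 21 tested partners and repair enzymes, 8 were higher, 6 lower and 7 not called, beside 25.6% higher and 25.5% lower over all rows tested, with a median log2 fold change of 0.12. Srxn1, which repairs overoxidized peroxiredoxins, was higher (33.9 ± 5.66 and 44.8 ± 5.93 CPM, log2 fold change 0.40, SE 0.11, adjusted p = 0.00687), with overlapping groups. Gsr, which recharges glutathione, had a log2 fold change of 0.15 (adjusted p = 0.0357), a call lost without WT replicate 1, 3, 4 or 6 or KO replicate 1, 3, 5 or 6 (0.11 to 0.15), with upper quartile factors (adjusted p = 0.0553), without the filter on low counts (0.0630) and with length and GC trends removed (0.0527). Gclc, the catalytic subunit of glutathione synthesis, was higher (17.7 ± 2.21 and 30.3 ± 5.35 CPM, 0.77). The methionine sulfoxide reductase Msrb3 was the largest rise of the list (35.4 ± 1.87 and 62.5 ± 3.39 CPM, 0.82), and Msrb2, its mitochondrial relative, was the largest fall after Nnt (73.3 ± 3.27 and 37.1 ± 4.02 CPM, -0.98).

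Glutathione peroxidases 1, 3 and 4 contain selenocysteine. Of 8 tested genes for selenoprotein synthesis and supply, 4 were higher and 1 was lower, with a median of 0.20. The shares over all rows tested were 25.6% higher and 25.5% lower. Lrp8, a receptor that takes up selenoprotein P, was at 0.15 to 1.31 CPM in WT and 6.26 to 10.2 in KO (log2 fold change 3.28, SE 0.28, adjusted p = 1.01e-07). Trit1, which modifies tRNAs including the selenocysteine tRNA, rose by 0.67 on the log2 scale, Sephs1 by 0.31 and Pstk, the kinase on the selenocysteine pathway, by 0.27. Secisbp2, which binds the selenocysteine element of the mRNAs, was lower (21.5 ± 1.98 and 15.8 ± 1.12 CPM, -0.44).

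Of 13 tested enzymes that make superoxide or hydrogen peroxide, 5 were higher and 6 lower, with a median of 0.05. Across all rows tested, 25.6% were higher and 25.5% lower. Nox4, an NADPH oxidase that releases mainly hydrogen peroxide, was at 1.38 to 3.18 CPM in WT and 22.3 to 31.0 in KO (log2 fold change 3.58, SE 0.15, adjusted p = 3.39e-11). The fibroblast sums were also higher in KO, but within KO the order differed in part. Replicate 6 had Nox4 at 29.6 CPM with the lowest fibroblast sum (2718 CPM), and replicate 4 had 23.0 with the highest (5297 CPM). Replicate 1 was high in both (31.0 and 5262 CPM). The part of the fibroblast markers in the Nox4 result was not tested. The other rises were Ncf1, Ncf4, Ero1a and Xdh; Ncf4, a subunit of the phagocyte oxidase at 1.14 CPM in WT, had a log2 fold change of 0.68 (adjusted p = 0.0314), lost without WT replicate 1, 4 or 5 or KO replicate 1 or 4 (0.48 to 0.65), and Xdh (0.33) was lost without WT replicate 1, 5 or 6 or KO replicate 3, 5 or 6 (0.26 to 0.35) and with length and GC trends removed (0.27, adjusted p = 0.107). Maob, a mitochondrial amine oxidase, was at 53.2 to 60.1 CPM in WT and 6.87 to 14.9 in KO (-2.60, SE 0.15, adjusted p = 7.93e-09). Aox1, an aldehyde oxidase, was lower by a log2 fold change of -0.87, at 66.3 to 91.0 CPM in WT and 26.7 to 56.2 in KO. Further falls, named after their values were seen, included Cybb (-0.59, adjusted p = 0.000467) and Cyba (-0.47, adjusted p = 0.00127), the membrane core of the phagocyte oxidase, and Maoa (-0.46).

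Of 12 tested regulators of these enzymes, 1 was higher, 3 were lower and 8 were not called. Nfkb1 was higher (60.3 ± 4.13 and 79.2 ± 5.33 CPM, log2 fold change 0.39). The falls were Foxo4 (-0.52), Foxo1 (-0.17, a call lost without KO replicate 2, at -0.16, and -0.30 with length and GC trends removed) and Sirt3, the mitochondrial deacetylase that acts on Sod2 protein (51.4 ± 2.64 and 36.9 ± 1.18 CPM, -0.48, adjusted p = 3.82e-07). The spans of Ric8a and Psmd13 overlap that of Sirt3 and held more counts than it did, 40300 against 14309. Nfe2l2, the factor that acts on antioxidant response elements, had a log2 fold change of 0.12 (adjusted p = 0.197), and its inhibitor Keap1 one of 0.11 (adjusted p = 0.113). Over the 6 lists together, 19 of 80 tested genes were higher and 29 lower, beside 25.6% and 25.5% of all rows tested.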

How the data were processed

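Ventricular wall RNA of 6 WT and 6 KO samples was sequenced after poly-T purification with a TruSeq kit. The authors deposited raw counts per gene, made with HTSeq (0.9.1) after alignment that the submitters' processing notes credit to HISAT2 (2.0.5) and mm10. The authors also deposited FPKM per library, computed from the counts, gene length and library size. Their log2 fold changes, p-values and group means in the same table were not used. Identifiers and coordinates are of a C57BL/6NJ annotation: 0 of 9 gene spans overlapped the spans of the same genes in GRCm38, and the starts differed by 1108851 to 5522830 bases, so no coordinates were carried between them.

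Counts were fitted with edgeR 4.0.16 under R 4.3.3. Rows of low counts were removed by filterByExpr, which left 17155, and TMM factors scaled the libraries (robust quasi-likelihood test, Benjamini-Hochberg adjustment over all rows kept). The SE of each log2 fold change was derived from its F statistic. Differences were called at an adjusted p of 0.05. Alternatives used DESeq2 1.42.0, limma 3.58.1 on log2(FPKM + 1) or voom, other scalings, no filter, removal of length and GC trends, a replicate block, and leaving out each library. The code was tested on simulated data, where 62 of 100 changes of 1.5-fold and 94 of 97 of 2-fold were recovered, with 11 false calls. Changes under 1.5-fold, as in all called enzymes but Sod3, were not simulated. FPKM served for levels between genes. Unannotated loci held 9.62% to 12.5% of the counts. The smallest chi-square per degree of freedom between replicates was 6.99, so no library was counted as a duplicate. The depth limits rows under 1 CPM; every enzyme here had at least 647 counts per library.

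The enzymes, the related lists and the tests were chosen with earlier results of these data known. Named are all 10 enzymes, Sdhaf4, fixed relatives and partners, and from each other list the 2 largest rises and 2 largest falls among called genes with a mean of at least 1 CPM, or all genes of a count of 5 or fewer. Gpx2, Txnrd1, Glrx3, Me3, Sephs2, Selenop and Esrra were not analysed here. Txnrd2 is given only where a value was far from its group or changed sign. Of the 7 cell type lists, red blood cell markers (3 tested) had 0 called, smooth muscle and pericyte markers 2 higher and 3 lower of 8, endothelial markers 5 and 2 of 10, macrophage markers 1 and 2 of 7, and adipocyte markers 1 lower of 1. These counts stand beside 25.6% higher and 25.5% lower over all rows tested.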

Additional observations from a re-analysis of the deposited data

Results flagged for a closer look

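No value of the 9 enzymes stood apart from its group by Dixon's test at the 95% level. Of 86 groups of 6 values examined, 6 were flagged, where chance gives 4.3. Sdhaf4 in KO replicate 1 was at 2.73 CPM against 2.25 to 2.41 in the other KO libraries. Nnt in WT replicate 6 was at 1483 CPM against 1024 to 1090.3. Maob in KO replicate 3 was at 14.9 CPM against 6.87 to 9.78. In KO replicate 6, Prdx6 was at 187 CPM against 145 to 160.2, and Txnrd2, the reductase of mitochondrial thioredoxin, whose counts are uncertain, at 39.8 CPM against 33.3 to 35.7. The minus-strand scaffold locus described as Sod2 was at 287 CPM in KO replicate 3 against 229 to 246.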

How the results depend on the processing

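Of 208 values of the 9 enzymes under the alternatives, 206 kept their direction and their side of the threshold. The exceptions were Sod1 with length and GC trends removed (-0.15, adjusted p = 0.0860) and Gpx3 without KO replicate 6 (-0.050); in both the cause was not tested. At the stricter threshold 0 enzymes were called in either direction, and 919 rows were higher and 836 lower over the whole table. Without a library in turn, log2 fold changes were -0.44 to -0.35 for Sod1, 0.87 to 0.97 for Sod3, -0.40 to -0.30 for Cat, -0.40 to -0.36 for Prdx3, -0.33 to -0.29 for Prdx5, 0.19 to 0.28 for Gpx1, -0.05 to 0.12 for Gpx3, 0.20 to 0.27 for Gpx4 and -0.31 to -0.27 for Txn2; rows called higher were 4087 to 4401 and lower 4162 to 4602, and related genes 15 to 19 and 27 to 29. Values near 0 changed sign for Prdx4 (-0.0011 without WT replicate 4 to 0.077 without KO replicate 6), Txn1 with length and GC trends removed (0.11), and Txnrd2 there (-0.011) and without KO replicate 6 (-0.0037, with 0.054 without KO replicate 4 as the highest). The 4 loci described as Sod2 were summed as an alternative chosen after seeing the data. Whether the replicate numbers pair the libraries is not stated in the labels. Deviations of same-numbered libraries correlated at -0.16 to 0.02, 0 over 0.1, and 1 of 6 WT libraries correlated best with its own number. These correlations cannot decide the question, because a weak effect shared by a pair could give the same values. With the replicate block, 4123 rows were higher and 4110 lower, the calls of the 9 enzymes did not change (Gpx1 0.22, adjusted p = 0.0143), and Gsr (adjusted p = 0.0707), Ncf4 (0.0921) and Pex3 (0.0710) no longer passed. FPKM ratios between genes depend on the annotated length.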

Other observations

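Enzymes that repair oxidized methionine split by member, as described after their values were seen. Msra rose from 28.9 ± 2.86 to 41.4 ± 2.47 CPM (log2 fold change 0.52, SE 0.0672) and Msrb1, a selenoprotein, from 136 ± 20.4 to 198 ± 22.4 CPM (0.55, SE 0.0959), in the same direction as Msrb3 and opposite to the mitochondrial Msrb2; by edgeR's quasi-likelihood test all 4 passed in all 12 fits that left out a library. The subunits of glutamate-cysteine ligase, the first enzyme of glutathione synthesis, also moved apart: Gclm, the modifier subunit, was at 42.0 ± 8.07 CPM in WT and 25.8 ± 5.63 in KO (log2 fold change -0.70, SE 0.15), with overlapping groups, while Gclc was higher.

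The glutaredoxins, which use glutathione to reduce protein disulfides, were not named above. Glrx, cytosolic, was at 18.2 ± 1.01 CPM in WT and 23.8 ± 2.98 in KO (log2 fold change 0.39), Glrx2, largely mitochondrial, at 37.1 ± 0.80 and 32.9 ± 2.35 (-0.17), both without overlap between the groups, and Glrx5, which serves iron-sulfur cluster assembly, at 83.2 ± 3.98 and 85.9 ± 5.31 (0.05, not past the threshold; 0.19 with length and GC trends removed).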
